A study of Mus musculus with 17 samples.

Results

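The genes described here encode lysosomal enzymes, lysosomal membrane proteins and the vacuolar proton pump of mouse plasmacytoid dendritic cells. A list of 37 symbols defined them, and a gene was a member when a probe set of the deposited table was annotated to exactly that symbol. Probe sets were found for 36 of the 37 genes (38 probe sets), among 19751 genes and 24680 probe sets in all. Atp6v0c was not analysed here. By role, the 36 members were 4 membrane-sector (V0) subunits, 8 catalytic-sector (V1) subunits and 2 accessory proteins of the pump, 9 proteases, 5 glycosidases, 3 proteins of lipid handling and 5 other membrane proteins.

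Total RNA came from plasmacytoid dendritic cells of C57BL/6 bone marrow. Other cells were depleted magnetically, and cells that were CD11c-intermediate, B220+ and Siglec-H+ were then sorted. The 17 Affymetrix arrays comprised 3 arrays each for CpG-A, CpG-B, LIF, CpG-A + LIF and CpG-B + LIF, and 2 for medium alone (replicates 1 and 3). LIF, the cytokine leukaemia inhibitory factor, was used at 10 ng/ml for 20 to 24 h and was given 1 h before CpG where both were used. CpG-A (2216) and CpG-B (1826), unmethylated oligonucleotides sensed by TLR9, were used at 6 µg/ml for 19 to 23 h. All groups shared the strain, the tissue and the sort, and no genetic change is given in the labels. The labels do not say whether replicates came from separate mice or pools, so p-values measure the spread between these arrays, which may be technical. In such bulk samples, fewer cells of a type and less RNA per cell cannot be told apart.

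Lysosomes are the acidic organelles in which cells break down proteins, glycans and lipids. Their acidity comes from the vacuolar H+-ATPase, whose V1 sector hydrolyses ATP in the cytosol and whose V0 sector carries protons across the membrane. In dendritic cells this compartment overlaps with the endosomes where TLR9 meets DNA, and cathepsins and legumain (asparagine endopeptidase) are known to cut TLR9 into its signalling form and to process antigens.

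The deposited intensities had lost their decimal mark, so log2 values are fixed except for whole steps of 3.32, a factor of 10. Each difference is printed as the reading closest to 0 on a log2 scale, called the nearest reading, which lies between -1.66 and 1.66. A real change larger than 3.16-fold would appear as a smaller or opposite one. Printed values of single arrays are the nearest reading of their group mean against medium plus the array's own deviation from that mean. Such values can pass 1.66, and nearest readings of single arrays are meant in this way. The words higher and lower are used of called genes with readings of at most 1.11 in size (2.15-fold), where the alternative is an opposite change of at least 4.64-fold. For larger readings the direction is unresolved and both readings are given. Expression levels cannot be read from such a table, so neither the order of genes by level nor the purity of the sort could be checked. For 31 of the 36 members, all 17 arrays lay within a span of 1.66, as did those of 87.7% of all genes. The median standard deviation within groups was 0.14 over members and 0.19 over all genes. Differences were called at an adjusted p under 0.05 from limma with Benjamini-Hochberg adjustment over all 19751 genes. Groups without overlap in their nearest readings were common. Against medium, 41.1% of all genes (29 of 36 members) had no overlap for CpG-A and 45.3% (22 members) for CpG-B. CpG-A vs CpG-B gave 28.2% (18 members), and 33.5% (25 members) with LIF. Against LIF alone the shares were 29.4% (17 members) for CpG-A + LIF and 37.2% (20 members) for CpG-B + LIF.

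Promoter sequences are shown because many lysosomal genes are known to be controlled by TFEB and TFE3, factors that bind the palindromic E-box CACGTG within the so-called CLEAR element. RefSeq windows from 250 bases before to 50 bases after a gene's start (GRCm38.p6) were found for 29 of the 36 members. CACGTG, which reads the same on both strands, occurred in the windows of 11 of these 29 genes (37.9%), against 8.09% of 27025 genes with a window. Its extension TCACGTGA, also a palindrome and always overlapping CACGTG, occurred in 6 of 29 (20.7%) against 1.12%. The median GC content was 54.5% in member windows and 52.7% in all windows. The 11 genes were Atp6v0b, Atp6v0d1, Atp6v0e, Atp6v1a, Ctsa, Ctsd, Ctsl, Gla, Glb1, Lamp1 and Lgmn. The stretch before the Lamp1 start, at chr8:13159041-13159160 on the plus strand, held 4 copies and is printed in full with CACGTG in capitals. In the windows of Gla, Ctsa and Ctsd, 1 copy is printed and a further copy begins at -227, 6 and -245 from the gene start. The 6 shorter windows around single copies come from genes whose values are given later: Lgmn at chr12:102439124-102439153 (minus), Atp6v1a at chr16:44139373-44139402 (minus), Gla at chrX:134601182-134601211 (minus), Glb1 at chr9:114401018-114401047 (plus), Ctsa at chr2:164833749-164833778 (plus) and Ctsd at chr7:142387908-142387937 (minus).
Lamp1: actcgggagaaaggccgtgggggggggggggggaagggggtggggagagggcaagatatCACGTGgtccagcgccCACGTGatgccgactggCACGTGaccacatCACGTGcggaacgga
Lgmn: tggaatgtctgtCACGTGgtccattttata
Atp6v1a: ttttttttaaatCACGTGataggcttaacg
Gla: tgagatctcggtCACGTGagcaactctcgg
Glb1: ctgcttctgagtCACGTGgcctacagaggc
Ctsa: tgagcaaactgtCACGTGatgcagatgctc
Ctsd: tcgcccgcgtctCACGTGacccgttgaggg

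Many of these genes were called with CpG. LIF called few of them, and few genes of any kind (0.81% against medium). In CpG-A vs medium, 18 of 36 members were called, against 16.7% of all genes. Of these, 9 read higher (4.91% of all genes), 3 read lower (7.15%) and 6 had no resolved direction (4.64%). The 3 lower calls include Gla, whose direction is doubtful. In CpG-B vs medium, 14 members were called against 19.2% of all genes, with 7 higher (6.94%), 5 lower (7%) and 2 unresolved (5.27%). The median reading over members was 0.24 for CpG-A and 0.13 for CpG-B, where the medians over all genes were -0.02 and -0.05. Both comparisons used the same 2 medium arrays. Members whose promoter window held CACGTG were called in 5 of 11 cases under CpG-A, and members with a window lacking it in 10 of 18. Under CpG-B the counts were 4 of 11 and 6 of 18.

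**Figure D1:**
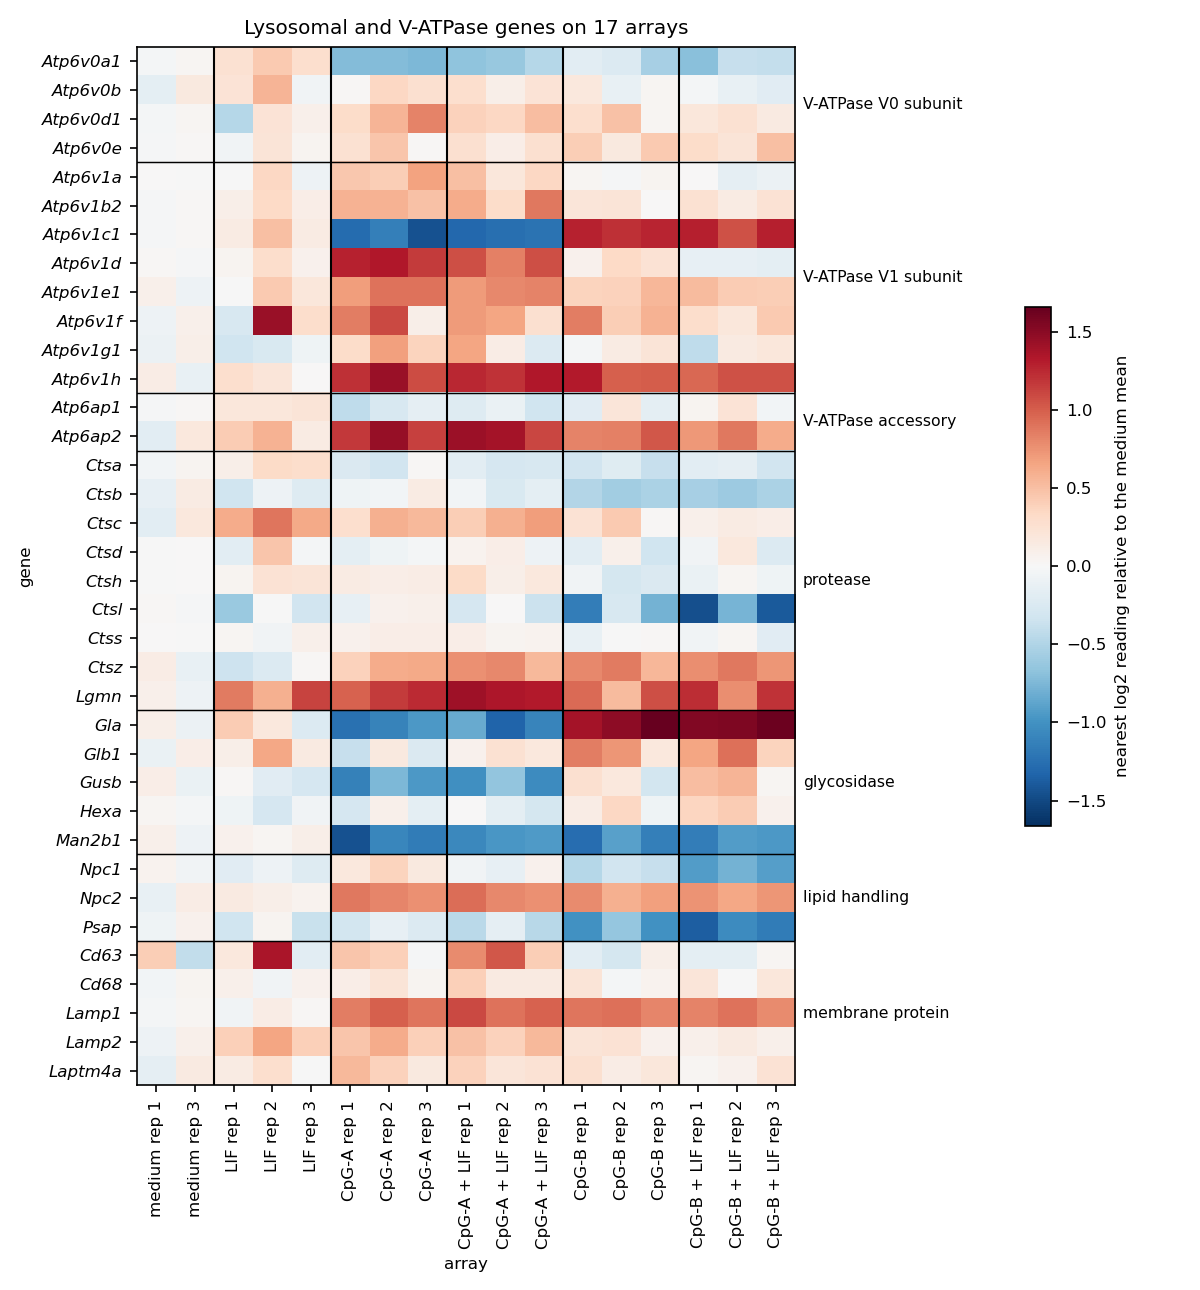
Each row is a gene, grouped by role, and each column an array. The colour is the log2 reading relative to the mean of the medium arrays, from -1.66 (blue) to 1.66 (red). Each array is placed at its group's nearest reading plus its deviation from the group mean. Lamp1, Npc2 and Atp6v1h are red on all CpG arrays and Man2b1 is blue on all of them, while the colours of Atp6v1c1 and Gla differ between CpG-A and CpG-B.

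In cells left without CpG, LIF vs medium called 2 members, both higher, against 0.81% of all genes called and 0.273% called higher. LIF added to CpG-A called 0 members against 0.00506% of all genes, and LIF added to CpG-B called 0 against 0.0608%. In cells already given LIF, CpG-A + LIF vs LIF called 16 members against 17.4%, with 9 higher (6.23%), 5 lower (7.29%) and 2 unresolved (3.85%). CpG-B + LIF vs LIF called 17 members against 25.4%, with 7 higher (10.5%), 9 lower (9.02%) and 1 unresolved (5.94%). The 7 include Atp6v1c1, whose direction is doubtful. The CpG-A responses without and with LIF, which share no arrays, had 14 called members in common, all of the same sign, which was 77.8% of the first list and 87.5% of the second (68.8% and 66.2% over all genes). The CpG-B responses had 11 in common, also of the same sign, 78.6% and 64.7% of their lists (75.3% and 56.9% over all genes). Over all genes, 2051 of 2269 shared CpG-A calls and 2551 of 2858 shared CpG-B calls had the same sign. Signs here are those of nearest readings, and both shared lists include Atp6v1c1 and Gla. Each gene's variance came from all 17 arrays in every comparison, so the lists are not independent.

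The 2 CpG classes differed in these genes. CpG-A vs CpG-B called 12 members against 13% of all genes, 9 of them higher with CpG-A (4.42%), 3 lower (6.14%) and 0 unresolved (2.4%). The 9 include Atp6v1c1 and Gla, whose readings do not add up. The median reading was 0.21 over members and 0.04 over all genes, and 28 of 36 members (77.8%) read above 0 against 56.7% of all genes. With LIF present, CpG-A + LIF vs CpG-B + LIF called 13 members against 16.9%, 10 higher (5.63%), 1 lower (8%) and 2 unresolved (3.27%). The 10 also include Atp6v1c1 and Gla, whose readings do not add up with LIF either. The comparisons without and with LIF share no arrays, but each gene's variance came from all 17 arrays in both, so the lists are not independent. Members called in both were Atp6v1a, Atp6v1c1, Atp6v1d, Ctsb, Ctsl, Gla, Gusb, Npc1 and Psap. The nearest readings of these 9 genes had the same sign in both, with Atp6v1c1 and Gla not settled. Over all genes, 1799 of the 1914 called in both had the same sign. With LIF, the directions of Atp6v1d and Gusb were unresolved. The 9 genes were 75% and 69.2% of the lists, against 74.8% and 57.3% over all genes. The count of 12 fell to 6 without CpG-A replicate 3. The count of 13 fell to 8 without CpG-A + LIF replicate 1, without CpG-A + LIF replicate 3 and without CpG-B + LIF replicate 2.

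**Figure D2:**
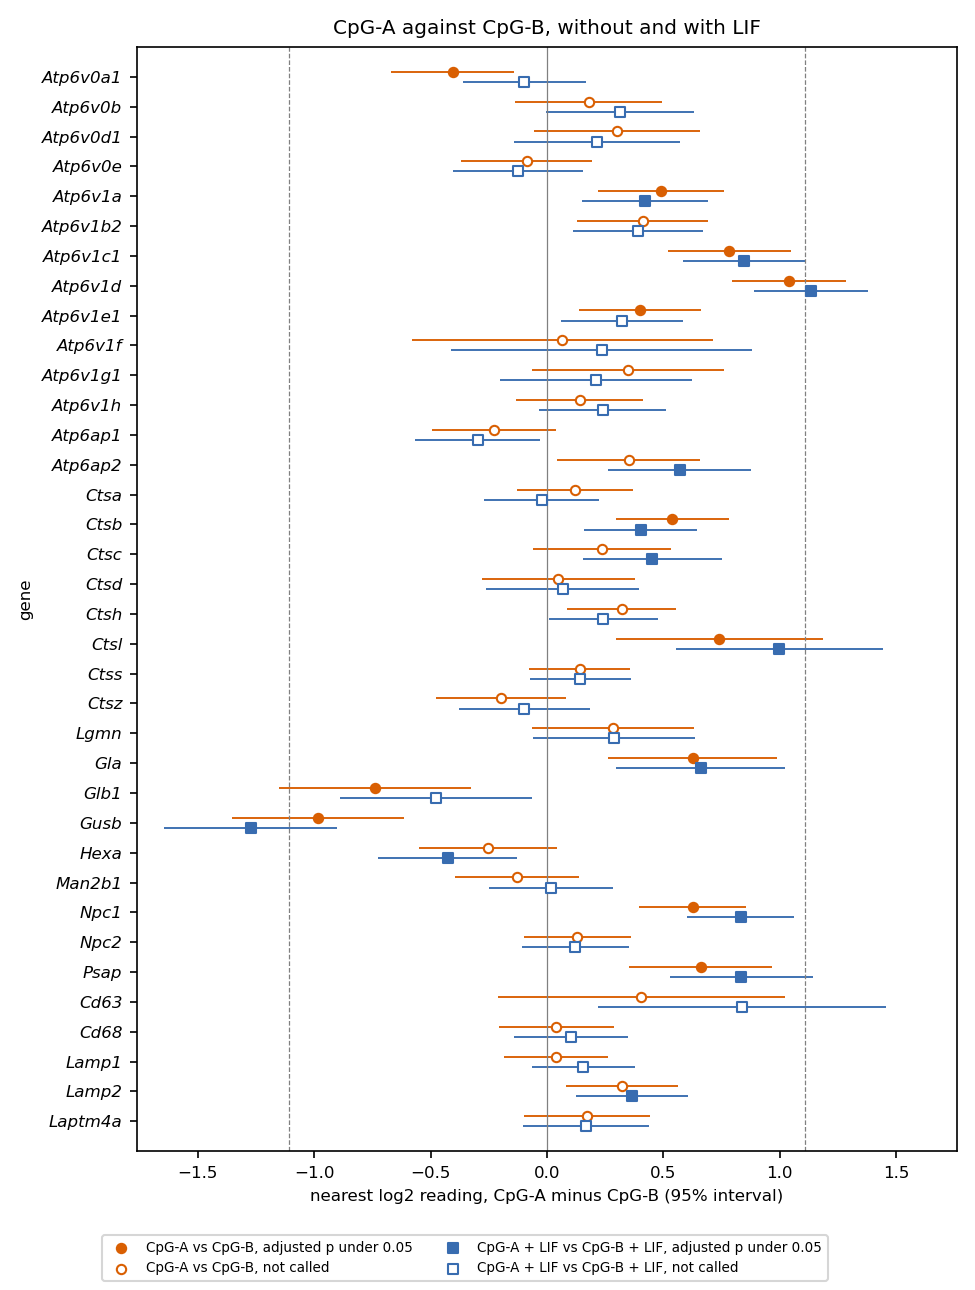
Points are nearest log2 readings of CpG-A minus CpG-B without LIF (circles) and with LIF (squares), bars are 95% intervals, filled points were called, and dashed lines mark the limit of 1.11 for direction. With the probe sets used, all 8 V1 subunits lie right of 0 in both comparisons, while Gusb and Glb1 lie left of 0 in both.

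Subunits of the V1 sector, which binds and splits ATP, read higher with CpG-A than with CpG-B where they were called without LIF, apart from Atp6v1c1, whose direction is not settled. Their median reading was 0.41 in CpG-A vs CpG-B and 0.36 with LIF, and 4 and 3 of the 8 were called. With the probe sets used, all 8 read above 0 in both, as did 56.7% and 58.2% of all genes. The second probe set of Atp6v1f read -0.006 and -0.1 in these comparisons, and that of Atp6v1g1 0.158 and 0. Atp6v1d, a subunit of the central rotor, read 1.27, 1.33 and 1.16 on the CpG-A arrays, 0.07, 0.33 and 0.24 on the CpG-B arrays and 0.02 and -0.02 on the medium arrays. The CpG-A arrays lay apart from all others without LIF. CpG-A vs CpG-B gave 1.04 ± 0.12 (SE, n = 3 and 3, limma adjusted p = 1.28e-05), and CpG-A vs medium gave 1.25 ± 0.13 or -2.07, direction unresolved. CpG-B vs medium gave 0.21 ± 0.13 (limma adjusted p = 0.302).

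With LIF present, the 3 CpG-A + LIF arrays of Atp6v1d read 1.07, 0.84 and 1.06. Its CpG-B + LIF arrays read -0.13, -0.13 and -0.16, again without overlap at the nearest readings. CpG-A + LIF vs CpG-B + LIF gave 1.13 ± 0.12 or -2.19 (limma adjusted p = 4.09e-06), direction unresolved. CpG-A + LIF vs LIF gave 0.86 ± 0.12 (limma adjusted p = 3.26e-05), within the limit for direction. Atp6v1h, the regulatory subunit that couples ATP hydrolysis to pumping, had high nearest readings with both CpG classes. Its CpG-A arrays read 1.22, 1.43 and 1.09, its CpG-B arrays 1.32, 0.99 and 1.01 and its medium arrays 0.13 and -0.13. The reading in CpG-B vs medium was 1.10 ± 0.15 higher (limma adjusted p = 2.84e-05) and CpG-A vs medium 1.25 ± 0.15 or -2.08. The 2 classes overlapped, and their difference was 0.14 ± 0.13 (limma adjusted p = 0.571).

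Atp6v1e1, part of the peripheral stalk, read 0.70, 0.90 and 0.91 with CpG-A, 0.37, 0.39 and 0.55 with CpG-B and 0.08 and -0.08 in medium. The 3 groups did not overlap. CpG-A vs medium gave 0.84 ± 0.14 higher (limma adjusted p = 0.000309). Against medium, CpG-B gave 0.44 ± 0.14 higher (limma adjusted p = 0.0342), a call lost without medium replicate 1 (0.52), medium replicate 3 (0.35), CpG-B replicate 2 (0.46) or CpG-B replicate 3 (0.38). Between the classes, CpG-A vs CpG-B gave 0.40 ± 0.12 (limma adjusted p = 0.0406), lost without CpG-A replicate 2 or 3 or CpG-B replicate 1 (0.37 each), CpG-B replicate 2 (0.38) or CpG-B + LIF replicate 2 (0.40).

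The ATP-binding subunits read higher with CpG-A by smaller amounts. Atp6v1a, the catalytic subunit, read 0.44, 0.41 and 0.67 with CpG-A, 0.03, -0.02 and 0.05 with CpG-B and 0.01 and -0.01 in medium. All CpG-A arrays were above all CpG-B and medium arrays. The reading in CpG-A vs medium was 0.51 ± 0.14 (limma adjusted p = 0.0191), lost without medium replicate 1 (0.51), medium replicate 3 (0.50) or CpG-A replicate 3 (0.42). The reading in CpG-A vs CpG-B was 0.49 ± 0.13 (limma adjusted p = 0.0148), lost without CpG-A replicate 3 (0.41) or CpG-B replicate 2 (0.47). With LIF, the CpG-A to CpG-B difference of 0.42 ± 0.13 (limma adjusted p = 0.0296) was lost without CpG-A + LIF replicate 1 (0.35) or 3 (0.42) or CpG-B + LIF replicate 2 (0.38) or 3 (0.41). Atp6v1b2, its non-catalytic partner, read 0.58, 0.57 and 0.49 with CpG-A against -0.02 and 0.02 in medium, and these groups did not overlap. Against medium, CpG-A gave 0.55 ± 0.15 (limma adjusted p = 0.0149), lost without medium replicate 1 (0.53) or 3 (0.57).

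Atp6v1f and Atp6v1g1, the remaining V1 members besides Atp6v1c1, were called in none of the 9 comparisons by limma, with either of the 2 probe sets that each has. Atp6v1f had a wide spread, with LIF arrays at -0.27, 1.43 and 0.29, and its reading in CpG-A vs medium was 0.68 ± 0.34. The second probe set of Atp6v1f read 0.46 in that comparison (limma adjusted p = 0.0789). Atp6v1g1 read 0.45 ± 0.22 there, and 0.06 with its second probe set.

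Of the V0 sector, which forms the proton path, 1 subunit read lower with CpG-A. Atp6v0a1, the large subunit that anchors the pump, read -0.72, -0.72 and -0.74 with CpG-A, -0.17, -0.23 and -0.56 with CpG-B and -0.03 and 0.03 in medium. The 3 groups did not overlap. CpG-A vs medium gave -0.73 ± 0.14 (limma adjusted p = 0.00118), lower, and CpG-B vs medium gave -0.32 ± 0.14 (limma adjusted p = 0.133). Against LIF alone, whose arrays read 0.26, 0.43 and 0.28, both CpG classes were lower, with -0.91 ± 0.13 for CpG-A + LIF (limma adjusted p = 4.16e-05) and -0.82 ± 0.13 for CpG-B + LIF (limma adjusted p = 8.18e-05). The CpG-A to CpG-B difference of -0.41 ± 0.13 (limma adjusted p = 0.0409) was lost without CpG-A replicate 1 or 2 (-0.41 each) or 3 (-0.40), or CpG-B replicate 1 (-0.33) or 2 (-0.36).

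Atp6v0d1, which joins V0 to the rotor, read 0.31, 0.57 and 0.82 with CpG-A against -0.03 and 0.03 in medium. The reading in CpG-A vs medium was 0.56 ± 0.19 (limma adjusted p = 0.0489). Of the 17 fits that each left out 1 array, 12 lost this call, with readings from 0.44 to 0.69 over all 17. The call held without LIF replicate 1, LIF replicate 2, CpG-A replicate 1, CpG-B replicate 2 or CpG-B replicate 3. Atp6v0b and Atp6v0e were called in none of the 9 comparisons, with CpG-A vs medium at 0.21 ± 0.17 and 0.25 ± 0.15.

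The accessory proteins differed from each other. Atp6ap2, also known as the prorenin receptor and an accessory protein of the pump, read 1.17, 1.44 and 1.14 with CpG-A, 0.82, 0.84 and 1.04 with CpG-B and -0.17 and 0.17 in medium. All CpG arrays lay above the medium arrays at their nearest readings, and all CpG-A arrays above all CpG-B arrays. CpG-B vs medium gave 0.90 ± 0.16 higher (limma adjusted p = 0.000537), and CpG-A vs medium gave 1.25 ± 0.16 or -2.07. CpG-A + LIF vs LIF gave 0.93 ± 0.15 higher (limma adjusted p = 0.000152). The CpG-A to CpG-B difference was 0.35 ± 0.15 (limma adjusted p = 0.137). Atp6ap1 gave -0.28 ± 0.14 in CpG-A vs medium (limma adjusted p = 0.223) and -0.05 ± 0.14 in CpG-B vs medium.

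Atp6v1c1, a V1 subunit of the peripheral stalk region that is known for reversible assembly of the pump, and Gla, the galactosidase that is lost in Fabry disease, were the 2 members whose nearest readings did not add up. This happened for 1.92% of all genes in the 3 comparisons among medium, CpG-A and CpG-B, and for 2.03% among LIF, CpG-A + LIF and CpG-B + LIF. Atp6v1c1 read -1.28, -1.13 and -1.45 with CpG-A, 1.28, 1.21 and 1.27 with CpG-B and -0.02 and 0.02 in medium. The direct comparison of CpG-A with CpG-B gave 0.78 ± 0.12 or -2.54 (limma adjusted p = 0.000282), and 0.85 ± 0.12 or -2.48 with LIF (limma adjusted p = 0.000112). The 3 nearest readings among medium, CpG-A and CpG-B cannot all be the true ones. At least 1 of them must be replaced by its other reading, which is 2.04 for CpG-A vs medium, -2.07 for CpG-B vs medium and -2.54 for CpG-A vs CpG-B. When the arrays of each gene were placed together by breaking the circle at its widest gap, CpG-A vs medium became 2.04 while CpG-B vs medium kept 1.25 ± 0.14. CpG-B + LIF vs LIF gave 0.96 ± 0.12 (limma adjusted p = 1.44e-05). This lies within the limit for direction, but the readings among the LIF groups do not add up either.

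Gla read -1.24, -1.11 and -0.95 with CpG-A, 1.39, 1.49 and 1.92 with CpG-B and 0.10 and -0.10 in medium. Against medium, CpG-A gave -1.10 ± 0.19 (limma adjusted p = 0.000509) and is counted among the lower calls, and CpG-B vs medium gave 1.60 ± 0.19 or -1.73 (limma adjusted p = 1.44e-05). CpG-A vs CpG-B gave 0.63 ± 0.17 (limma adjusted p = 0.0205), lost without CpG-A replicate 3 (0.55), CpG-B replicate 1 (0.52) or CpG-B replicate 2 (0.57). With LIF it gave 0.66 ± 0.17 (limma adjusted p = 0.0123), lost without CpG-A + LIF replicate 1 (0.53). The readings of Gla add up when CpG-A vs medium is 2.22, when CpG-B vs medium is -1.73 or when CpG-A vs CpG-B is -2.70, with the other two at their nearest readings, and which of these is true cannot be read from the table. Its nearest readings are counted in the directions given earlier by the limit of 1.11 alone. The reading in CpG-B vs medium turned to -1.63 without medium replicate 1 and to -1.62 without CpG-B replicate 1.

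**Figure D3:**
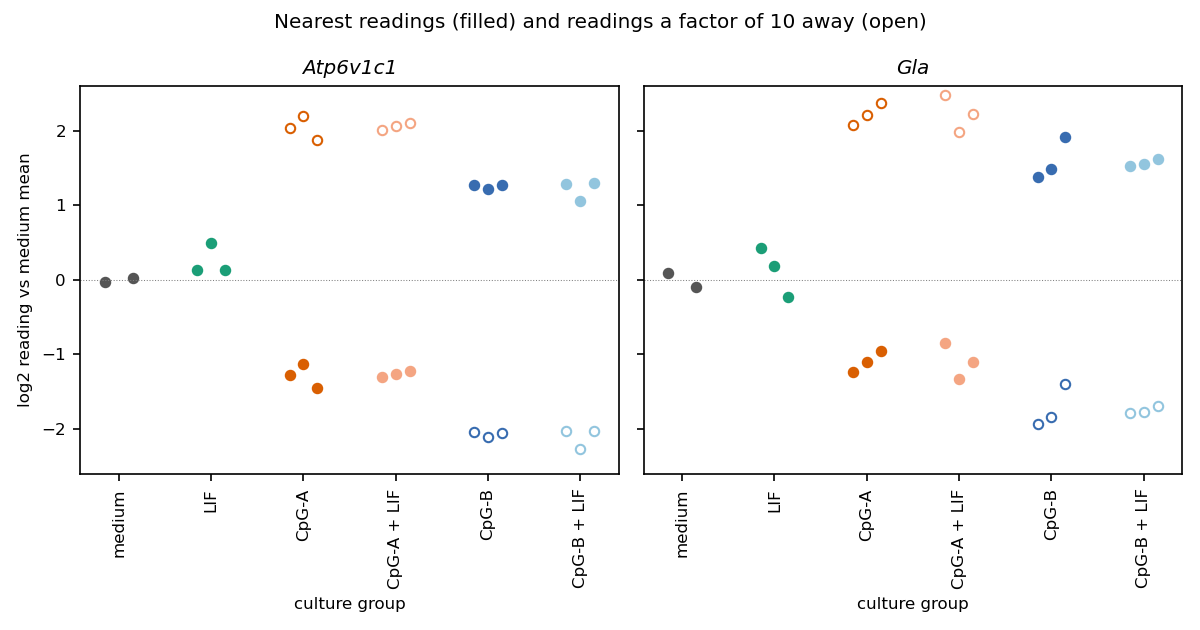
Filled points are single arrays on a log2 scale relative to the medium mean, each placed at its group's nearest reading plus its deviation from the group mean. Open points are the same arrays placed 3.32 away, a factor of 10, drawn where they fall inside the axis. For both genes the filled CpG-A and CpG-B points lie on opposite sides of medium, and moving either group to its open points puts both groups on the same side.

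Among the 9 proteases, cathepsins B and L read higher with CpG-A than with CpG-B, and both read lower with CpG-B than in medium. Ctsb, an endopeptidase of the papain family, read -0.07, -0.05 and 0.13 with CpG-A, -0.49, -0.58 and -0.53 with CpG-B and -0.14 and 0.14 in medium. The CpG-B arrays lay below all CpG-A and medium arrays. The reading in CpG-B vs medium was -0.53 ± 0.13 (limma adjusted p = 0.00575), lost without medium replicate 3 (-0.40), and CpG-A vs medium gave 0.00 ± 0.13 (limma adjusted p = 0.99). Between the classes, CpG-A vs CpG-B gave 0.54 ± 0.12 (limma adjusted p = 0.00352), and 0.40 ± 0.12 with LIF (limma adjusted p = 0.0211), the latter lost without CpG-A + LIF replicate 1 (0.35) or 3 (0.40) or CpG-B + LIF replicate 1 (0.41) or 2 (0.38).

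Ctsl, a related endopeptidase that acts on the invariant chain, read -0.14, 0.07 and 0.08 with CpG-A, -1.15, -0.27 and -0.79 with CpG-B and 0.02 and -0.02 in medium. The CpG-B arrays spread widely and lay below all CpG-A and medium arrays, which overlapped. The reading in CpG-A vs CpG-B was 0.74 ± 0.21 (limma adjusted p = 0.0248), lost without CpG-A replicate 2 (0.70) or 3 (0.70) or CpG-B replicate 1 (0.53) or 3 (0.71). Against medium, CpG-B gave -0.74 ± 0.24 (limma adjusted p = 0.0354), lost without medium replicate 1 (-0.72) or 3 (-0.75) or CpG-B replicate 1 (-0.53) or 3 (-0.71). With LIF, where the CpG-B + LIF arrays read -1.46, -0.78 and -1.39, the CpG-A to CpG-B difference was 1.00 ± 0.21 (limma adjusted p = 0.00265) and CpG-B + LIF vs LIF was -0.90 ± 0.21 (limma adjusted p = 0.00363). Both of these calls held in every fit that left out 1 array.

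Ctsz, a carboxypeptidase also called cathepsin X, read higher with both CpG classes, and Lgmn, the asparagine endopeptidase, read higher with CpG-B and was unresolved with CpG-A. Ctsz read 0.38, 0.62 and 0.63 with CpG-A, 0.80, 0.87 and 0.56 with CpG-B and 0.12 and -0.12 in medium. CpG-B vs medium gave 0.74 ± 0.15 (limma adjusted p = 0.0013), and CpG-A vs medium 0.54 ± 0.15 (limma adjusted p = 0.0155), the latter lost without medium replicate 3 (0.42) or CpG-A replicate 2 or 3 (0.50 each). Lgmn read 0.98, 1.17 and 1.24 with CpG-A, 0.94, 0.52 and 1.07 with CpG-B and 0.09 and -0.09 in medium. All CpG arrays lay above medium at their nearest readings. The reading in CpG-B vs medium was 0.84 ± 0.18 higher (limma adjusted p = 0.00273), and CpG-A vs medium gave 1.13 ± 0.18 or -2.19 (limma adjusted p = 0.000258).

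Ctsc, which activates granule serine proteases, read 0.28, 0.59 and 0.54 with CpG-A against -0.17 and 0.17 in medium. CpG-A vs medium gave 0.47 ± 0.16 (limma adjusted p = 0.049), and 12 of the 17 fits that left out 1 array lost this call, with readings from 0.30 to 0.64 over all 17. It held without medium replicate 3, LIF replicate 2, CpG-A replicate 1, CpG-B replicate 2 or CpG-B replicate 3. Against LIF alone, Ctsc read lower with CpG-B + LIF, whose arrays at 0.09, 0.14 and 0.11 lay below the LIF arrays at 0.61, 0.89 and 0.63. That reading was -0.60 ± 0.14 (limma adjusted p = 0.00358), and the call held in all 24 other settings. Ctsa, the serine carboxypeptidase that protects lysosomal galactosidase, was called only against LIF alone, at -0.47 ± 0.12 with CpG-A + LIF (limma adjusted p = 0.00792) and -0.45 ± 0.12 with CpG-B + LIF (limma adjusted p = 0.00793). Its 3 LIF arrays read 0.09, 0.32 and 0.30 and all CpG + LIF arrays -0.14 or below. Ctsd, Ctsh and Ctss, an aspartic protease and a pair of cysteine proteases, were called in none of the 9 comparisons by limma. Ctss, the main invariant chain protease of antigen-presenting cells, read 0.10 ± 0.12 in CpG-A vs medium and -0.04 ± 0.12 in CpG-B vs medium. Ctsd, whose printed promoter stretch holds an E-box, read -0.09 ± 0.17 and -0.14 ± 0.17.

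The 5 glycosidases all had nearest readings below 0 in CpG-A vs medium, with a median of -0.94, where 47% of all genes read above 0. Of these, Gusb was called lower, Man2b1 was called with no resolved direction, and Glb1 and Hexa were not called. Gla was called at -1.10 or 2.22, and its readings do not add up, so its direction is not settled. The 30 other lysosomal glycosidases, lipases, sulfatases and nucleases on the array had a median of 0.009 in this comparison. Man2b1, the lysosomal alpha-mannosidase, read -1.45, -1.08 and -1.17 with CpG-A, -1.27, -0.90 and -1.14 with CpG-B and 0.08 and -0.08 in medium. The CpG groups overlapped and both lay below medium at their nearest readings. Against medium, CpG-B gave -1.10 ± 0.14 lower (limma adjusted p = 2.41e-05), close to the limit for direction, and CpG-A vs medium gave -1.23 ± 0.14 or 2.09. Against LIF alone, both readings were lower and within the limit, at -1.06 ± 0.13 for CpG-A + LIF (limma adjusted p = 1.02e-05) and -1.08 ± 0.13 for CpG-B + LIF (limma adjusted p = 5.34e-06).

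Gusb, the beta-glucuronidase, separated the CpG classes. It read -1.12, -0.74 and -0.96 with CpG-A, 0.27, 0.17 and -0.31 with CpG-B and 0.11 and -0.11 in medium. The CpG-A arrays lay below all others, and the CpG-B arrays overlapped medium. The reading in CpG-A vs medium was -0.94 ± 0.20 (limma adjusted p = 0.00217) and CpG-A vs CpG-B gave -0.98 ± 0.18 (limma adjusted p = 0.000801). With LIF, CpG-A against CpG-B gave -1.27 ± 0.18 or 2.05 (limma adjusted p = 5.93e-05).

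Glb1, the beta-galactosidase, read -0.39, 0.16 and -0.24 with CpG-A and 0.85, 0.73 and 0.17 with CpG-B, and -0.11 and 0.11 in medium. The lowest CpG-B array and the highest CpG-A array almost met. CpG-A vs CpG-B gave -0.74 ± 0.20 (limma adjusted p = 0.0155), lost without CpG-A replicate 1 (-0.62) or 3 (-0.70) or CpG-B replicate 1 (-0.61) or 2 (-0.67). Hexa, the alpha subunit of the hexosaminidase that degrades gangliosides, read -0.12 ± 0.16 in CpG-A vs medium and 0.13 ± 0.16 in CpG-B vs medium. It was called in CpG-B + LIF vs LIF, at 0.42 ± 0.14 (limma adjusted p = 0.0361), lost without LIF replicate 1 (0.45), 2 (0.35) or 3 (0.46) or CpG-B + LIF replicate 1 (0.38) or 2 (0.35). It was also called in CpG-A + LIF vs CpG-B + LIF, at -0.43 ± 0.14 (limma adjusted p = 0.0454), which 10 of the 17 fits that left out 1 array lost, with readings from -0.53 to -0.36. That call held without LIF replicate 2, CpG-A replicate 1 or 2, CpG-A + LIF replicate 1, CpG-B replicate 2 or 3, or CpG-B + LIF replicate 3.

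Of the 3 lipid handling genes, Npc2 read higher with both CpG classes, and Npc1 and Psap read lower with CpG-B. Npc2, the soluble cholesterol carrier, read 0.88, 0.81 and 0.76 with CpG-A, 0.79, 0.59 and 0.68 with CpG-B and -0.12 and 0.12 in medium. All CpG arrays lay above medium and the CpG groups overlapped. Against medium, CpG-A gave 0.82 ± 0.12 (limma adjusted p = 0.000112) and CpG-B vs medium 0.69 ± 0.12 (limma adjusted p = 0.000443), and the difference between the classes was 0.13 ± 0.11 (limma adjusted p = 0.525).

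Npc1, the membrane cholesterol exporter that takes over from Npc2, read 0.18, 0.37 and 0.16 with CpG-A, -0.47, -0.32 and -0.38 with CpG-B and 0.06 and -0.06 in medium. The 3 groups did not overlap. Between the classes, CpG-A vs CpG-B gave 0.63 ± 0.11 (limma adjusted p = 0.000684) and CpG-B vs medium -0.39 ± 0.12 (limma adjusted p = 0.0314), the latter lost without medium replicate 1 (-0.33) or 3 (-0.45) or CpG-B replicate 1 (-0.35) or 3 (-0.40). CpG-A vs medium gave 0.23 ± 0.12 (limma adjusted p = 0.243). With LIF the class difference was 0.83 ± 0.11 (limma adjusted p = 3.99e-05), and CpG-B + LIF arrays at -0.93, -0.79 and -0.92 gave -0.72 ± 0.11 against LIF alone (limma adjusted p = 7.6e-05).

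Psap, the precursor of the saposins that help glycosidases reach lipids, read -0.31, -0.14 and -0.23 with CpG-A, -1.01, -0.64 and -1.01 with CpG-B and -0.07 and 0.07 in medium. All CpG-B arrays lay below the other 2 groups. CpG-B vs medium gave -0.89 ± 0.16 (limma adjusted p = 0.000631), CpG-A vs medium -0.23 ± 0.16 (limma adjusted p = 0.44) and CpG-A vs CpG-B 0.66 ± 0.15 (limma adjusted p = 0.00465). With LIF the class difference was 0.83 ± 0.15 (limma adjusted p = 0.00054). The class differences of Npc1 and Psap, without and with LIF, held in every fit that left out 1 array.

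Of the other membrane proteins, Lamp1 read higher with both CpG classes in each comparison against medium or LIF. This major glycoprotein of the lysosomal membrane, whose promoter window held 4 E-boxes, read 0.84, 0.99 and 0.88 with CpG-A, 0.88, 0.91 and 0.81 with CpG-B and -0.03 and 0.03 in medium. Its CpG groups overlapped and lay far above medium. The reading in CpG-A vs medium was 0.91 ± 0.12 (limma adjusted p = 3.06e-05) and CpG-B vs medium 0.87 ± 0.12 (limma adjusted p = 3.93e-05), a difference of 0.04 ± 0.11 between classes. With LIF, CpG-A gave 0.96 ± 0.11 (limma adjusted p = 4.43e-06) and CpG-B 0.81 ± 0.11 (limma adjusted p = 1.48e-05) against LIF alone. Lamp2, its relative with a role in chaperone-mediated autophagy, read 0.47, 0.62 and 0.40 with CpG-A and -0.08 and 0.08 in medium. Against medium, CpG-A gave 0.50 ± 0.13 (limma adjusted p = 0.0101), lost without medium replicate 1 (0.42). Cd63, a tetraspanin, Cd68, a macrophage-associated glycoprotein, and Laptm4a were called in none of the 9 comparisons by limma. The widest of these intervals belonged to Cd63, with 0.28 ± 0.33 in CpG-A vs medium and medium arrays at 0.41 and -0.41.

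**Figure D4:**
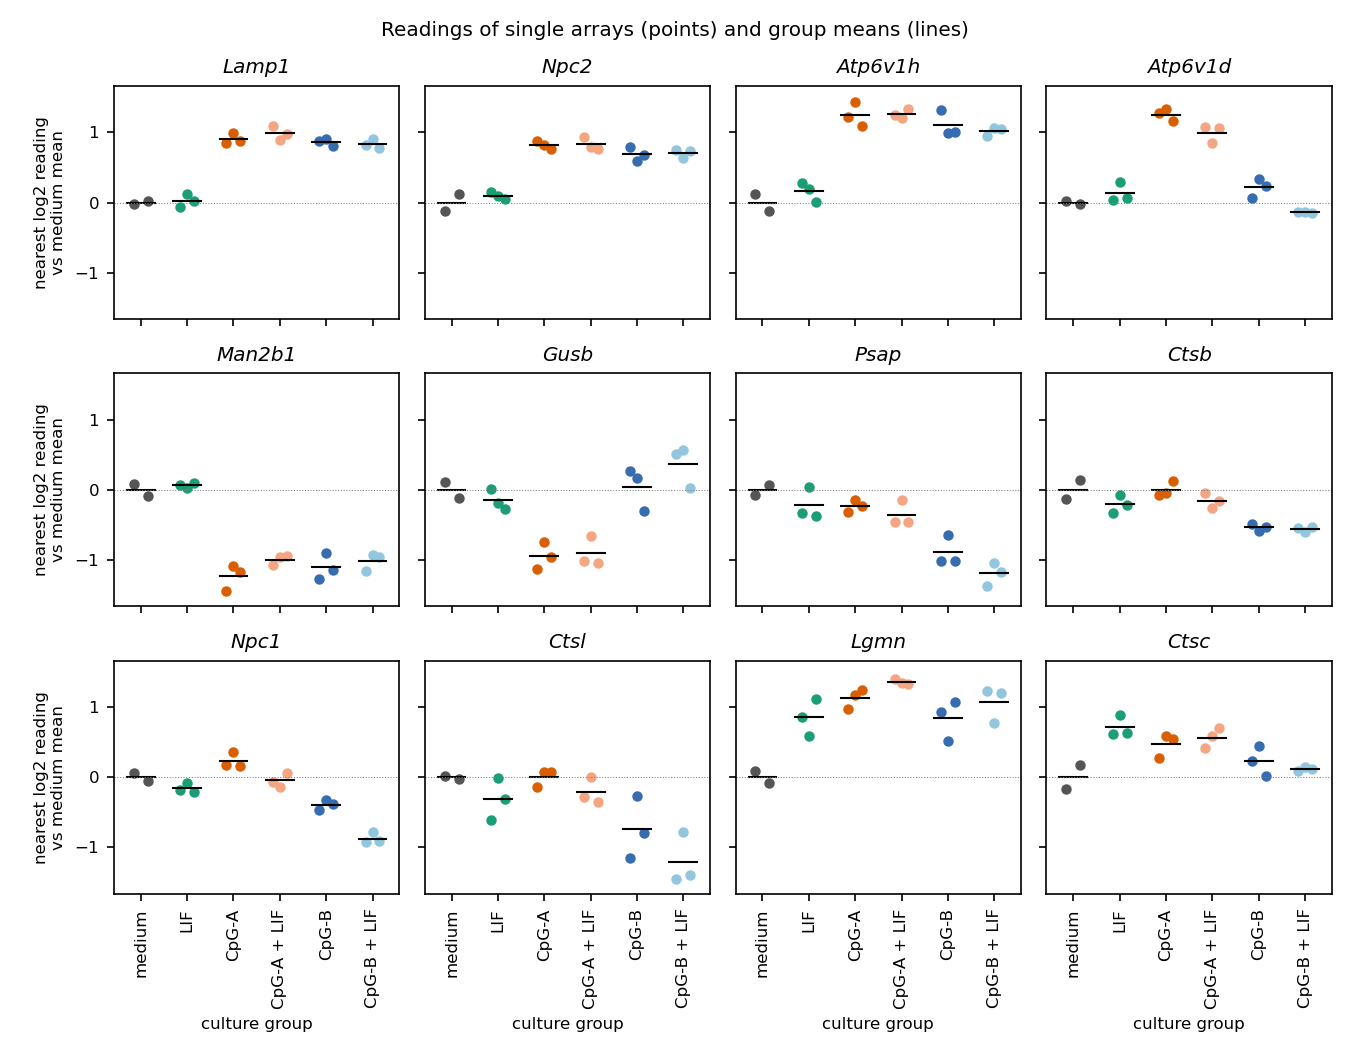
Points are log2 readings of single arrays relative to the medium mean and short lines are group means, for 12 members chosen after their values were seen. Each array is placed at its group's nearest reading plus its deviation from the group mean. Lamp1, Npc2 and Atp6v1h have high nearest readings on all CpG arrays. Those of Atp6v1d are high and those of Gusb low with CpG-A, and those of Psap, Ctsb, Npc1 and Ctsl are low with CpG-B.

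Some members were called in comparisons with LIF present at smaller readings. Lamp2 read lower in CpG-B + LIF vs LIF (-0.38 ± 0.11, limma adjusted p = 0.0187), lost without LIF replicate 2 (-0.30) or CpG-B + LIF replicate 1 or 3 (-0.37 each). Gusb read higher there (0.52 ± 0.18, limma adjusted p = 0.0373), lost without LIF replicate 2 (0.50) or 3 (0.46) or CpG-B + LIF replicate 1 (0.45) or 2 (0.42), and lower in CpG-A + LIF vs LIF (-0.76 ± 0.18, limma adjusted p = 0.00475), which held in every such fit. Atp6ap1 read lower in CpG-A + LIF vs LIF (-0.42 ± 0.13, limma adjusted p = 0.0282), lost without any single LIF array (-0.41 to -0.42) or CpG-A + LIF replicate 1 (-0.42) or 3 (-0.36). Atp6ap2 read higher in CpG-A + LIF vs CpG-B + LIF (0.57 ± 0.15, limma adjusted p = 0.0103), lost without CpG-A + LIF replicate 1 (0.51). With only the arrays of the compared groups in the fit, the calls of Lamp2 (limma adjusted p = 0.0595) and Gusb (limma adjusted p = 0.0508) in CpG-B + LIF vs LIF and of Atp6ap1 (limma adjusted p = 0.0506) were lost too, as were both Hexa calls (limma adjusted p = 0.0619 and 0.0704).

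Against medium, LIF alone called 2 of these genes. The median reading over members was 0.13 against -0.02 over all genes, and 27 of 36 members (75%) read above 0 against 45.2% of all genes. In CpG-A vs medium 25 members read above 0 (47% of all genes), and in CpG-B vs medium 24 (42.9%). Lgmn read 0.86, 0.59 and 1.12 with LIF against 0.09 and -0.09 in medium, a difference of 0.86 ± 0.18 (limma adjusted p = 0.0349). Ctsc read 0.61, 0.89 and 0.63 against -0.17 and 0.17, a difference of 0.71 ± 0.16 (limma adjusted p = 0.0406). In both genes the groups did not overlap, as in 12 of 36 members and 25.9% of all genes in this comparison. The call of Lgmn was lost without medium replicate 1 (0.94), medium replicate 3 (0.77), LIF replicate 1 (0.85) or LIF replicate 3 (0.725). The call of Ctsc was lost in 10 of the 17 fits that left out 1 array, with readings from 0.54 to 0.89, and held only without CpG-A replicate 1 or 2, CpG-B replicate 2 or 3, or any single CpG-A + LIF array. No other member was called, and 5 of 36 had an unadjusted p under 0.05, against 10.3% of all genes.

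On top of CpG, LIF moved no member past the threshold. With CpG-A, 2 members had an unadjusted p under 0.05 (6.08% of all genes), and with CpG-B 3 did (7.74%). Npc1 came closest in both, with -0.28 ± 0.11 on CpG-A (limma adjusted p = 0.689) and -0.49 ± 0.11 on CpG-B (limma adjusted p = 0.126). The 95% intervals of the members ran from -0.78 to 1.08 on CpG-A and from -0.95 to 0.70 on CpG-B. The interaction tests called 0 members, where 0.0506% of all genes were called for CpG-A and 0.137% for CpG-B, and unadjusted p was under 0.05 for 4 and 6 members (7.03% and 9.87% of all genes). The smallest belonged to Ctsc in the CpG-B interaction, at -0.83 ± 0.21 (limma adjusted p = 0.138). The LIF effect under CpG-A minus that under CpG-B called 0 members and 0% of all genes, with 0 members and 5.11% of all genes at an unadjusted p under 0.05. LIF replicate 2 was the highest of the 3 LIF arrays for 24 of 36 members and the lowest for 5, while over all genes it was highest for 30.7% and lowest for 37.9%.

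Other genes of the same organelle, from lists separate from the 37, gave further counts, which stand beside 16.7% of all genes called in CpG-A vs medium (4.91% higher, 7.15% lower) and 19.2% in CpG-B vs medium (6.94% higher, 7% lower). Of 21 MiT/TFE factors and components of the lysosomal mTORC1 machinery, 7 were called in CpG-A vs medium, 6 higher and 1 lower, and 5 in CpG-B vs medium, 3 higher and 2 lower. Tfe3, a lysosomal master regulator, read 0.79 ± 0.17 higher with CpG-A (limma adjusted p = 0.00298), Rragc, a GTPase that recruits mTORC1, 0.88 ± 0.14 higher (limma adjusted p = 0.000224), and Lamtor4, a part of its anchor, -1.08 ± 0.14 lower (limma adjusted p = 3.01e-05). Of 10 further V-ATPase subunits, 0 were called with CpG-A and 2 with CpG-B, both lower, Tcirg1 at -0.52 ± 0.13 (limma adjusted p = 0.00604) and Atp6v1g2 at -0.58 ± 0.17 (limma adjusted p = 0.0183). Of 10 V-ATPase assembly and regulation genes, 2 were called with CpG-A, both lower, and 2 with CpG-B (1 lower, 1 unresolved), near those shares. CpG-A + LIF vs LIF called 3 of them, all lower (17.4% of all genes called, 7.29% lower). CpG-B + LIF vs LIF called 6, 5 lower and 1 higher (25.4% called, 9.02% lower and 10.5% higher). Of 30 other lysosomal glycosidases, lipases, sulfatases and nucleases, 17 were called with CpG-A (5 higher, 8 lower, 4 unresolved) and 15 with CpG-B (5 higher, 3 lower, 7 unresolved). Of 13 other proteases and inhibitors, 8 were called with CpG-A (3 higher, 5 lower) and 6 with CpG-B (3 higher, 3 lower). The cystatin Cst3, a cathepsin inhibitor, read -1.02 ± 0.17 (limma adjusted p = 0.00034) and -0.94 ± 0.17 (limma adjusted p = 0.000574). Cstb, another inhibitor of this list, went the other way with CpG-A, at 0.96 ± 0.19 higher (limma adjusted p = 0.00126).

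Of 22 other lysosomal membrane proteins and transporters, 12 were called in CpG-A vs medium (6 higher, 4 lower, 2 unresolved), 10 in CpG-B vs medium (4 higher, 6 lower) and 9 in CpG-A vs CpG-B (8 higher, 1 lower). Over all genes the called shares were 16.7%, 19.2% and 13%, with 4.42% higher and 6.14% lower in the last. The 3 genes of this list with the smallest adjusted p in CpG-B vs medium read lower, close to the limit for direction. They were Slc29a3 (-1.05 ± 0.14), Slc38a9 (-1.10 ± 0.17) and Slc15a4 (-1.08 ± 0.18), with limma adjusted p of 2.48e-05, 0.000125 and 0.000216. Slc15a4 is a transporter known to be needed for TLR9 responses. Sorting genes gave 5 of 21 called with CpG-A (16.7% of all genes) and 4 of 21 with CpG-B (19.2%), counts near those shares, and the retromer subunit Vps35 read 0.99 ± 0.16 and 1.00 ± 0.16 higher (limma adjusted p = 0.000276 and 0.000216). Autophagy genes gave 4 of 17 with CpG-A and 5 of 17 with CpG-B, beside the same shares of 16.7% and 19.2%.

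Marker genes of cell types were counted in the same comparisons, where 13% of all genes were called in CpG-A vs CpG-B, 16.9% with LIF, 16.7% in CpG-A vs medium, 19.2% in CpG-B vs medium and 0.81% in LIF vs medium. Of 10 plasmacytoid dendritic cell markers on the array, 8 were called in CpG-A vs CpG-B, 7 higher with CpG-A and 1 unresolved, with a median reading of 0.64, and 7 were called with LIF, 4 higher and 3 unresolved, with a median of 0.70. Of 7 macrophage and monocyte markers, 3 were called in each, 1 higher and 2 unresolved. Against medium, CpG-A called 5 of the 10 plasmacytoid markers (3 higher, 2 lower) and 3 of the 7 macrophage markers (all unresolved). CpG-B called 7 of 10 (2 higher, 2 lower, 3 unresolved) and 4 of 7 (1 lower, 3 unresolved). Calls of the other lists follow for CpG-A vs CpG-B without and with LIF, then CpG-A and CpG-B vs medium. Conventional dendritic cell markers gave 3 (2 higher, 1 lower), 3 (2 higher, 1 unresolved), 3 (1 lower, 2 unresolved) and 4 (1 higher, 2 lower, 1 unresolved) of 6. Neutrophil markers gave 0, 1, 2 and 3 of 6, and B cell markers 1, 2, 1 and 1 of 5. T and NK cell markers gave 1, 0, 0 and 1 of 5, and the 1 erythroid marker was called in the first and last. LIF vs medium called 0 markers of any list. Summed marker levels cannot be formed from these values, and the part of cell composition in the lysosomal readings was not tested.

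Over the 6 group means, the genes whose readings followed the median of the members most closely were Ccdc81 (Pearson r = 0.994), Trip4 (0.994), D17H6S53E (0.993), Herc4 (0.991) and Pip4k2c (0.987), as a description over 6 points. The member medians they followed were 0.13 with LIF, 0.24 with CpG-A, 0.21 with CpG-A + LIF, 0.13 with CpG-B and 0.11 with CpG-B + LIF, against 0 in medium.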

How the data were processed

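Linear RMA intensities were deposited by the authors as 1 table of 24680 probe sets on 17 arrays. RMA, which corrects background, normalizes and summarises probes, is named in the submitters' processing notes, and its version is not given in the sources used here. All but 1 of 419560 cells lack a decimal mark, so the authors' values were taken as the digits of an intensity of unknown power of 10. Of the probe sets, 21354 carry 1 gene symbol, 1275 several and 2051 none in the platform annotation, and a gene was represented by its probe set with the most accessions. Group means were circular, each array deviated by the shortest way, and limma 3.58.1 (R 4.3.3) fitted 1 coefficient per group over all arrays with 11 residual degrees of freedom. Interactions are differences of nearest readings, not folded again. The test was checked on simulated data. Members, lists and the limit for direction were chosen with earlier results of these data known. All 36 measured members are named; from other lists, at most the 3 called genes with the smallest adjusted p per comparison were named, and the 5 genes most like the members' median. Promoters came from RefSeq (GRCm38.p6). Alternatives were a replicate block, centred arrays, other placements and variance settings, and leaving out each array.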

Additional observations from a re-analysis of the deposited data

How the results depend on the processing

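Across 7 comparisons, 92 member calls were recomputed under 24 other settings, and 56 kept their direction and side of the threshold in every setting that tested them. Among these settings, taking the first probe set of each gene left the probe sets of all members as they were, so it is no test of them. The 12 counts of members called stayed within 1.5 times, apart from the cases given next, under the 7 settings that did not leave out an array. With only genes whose arrays lie within 1.66, LIF vs medium called 0 members and 13 genes, CpG-A vs CpG-B 7 members and 1292 genes, CpG-A vs medium 1879 genes, CpG-B vs medium 2124, CpG-A + LIF vs CpG-B + LIF 1947, CpG-A + LIF vs LIF 1851, CpG-B + LIF vs LIF 3101, LIF 0 on top of CpG-A and 2 on top of CpG-B, and both interactions 0. This setting tests fewer genes. With only the arrays of the compared groups, LIF vs medium called 0 members and 17 genes, LIF 0 on top of either CpG, the CpG-A interaction 0 and the CpG-B interaction 17, and 21 of 92 member calls were lost. This setting uses fewer arrays, and the lost calls include Atp6v1a and Lamp2 in CpG-A vs medium (limma adjusted p = 0.0511 and 0.0545). They also include Ctsl and Npc1 in CpG-B vs medium (limma adjusted p = 0.0506 and 0.0921). With arrays placed by the widest gap, the counts of genes were 9 for LIF added to CpG-A, 36 and 52 for the interactions with CpG-A and CpG-B, and 8 for their difference, and the cause was not tested. The same placement turned Atp6v1c1 to 2.04 in CpG-A vs medium and 1.80 in CpG-A + LIF vs LIF, and Gla to -1.73 in CpG-B vs medium and -1.88 in CpG-B + LIF vs LIF, by its own construction.

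The labels do not say that replicate numbers mark a shared mouse, day or batch. Over 40 same-numbered pairs the correlation of deviations had a median of 0.02 and a highest value of 0.24 and exceeded 0.1 in 6, so not every pair passed 0.1 and the main fit has no block. Yet 14 of 17 arrays correlated best with an array of their own number, and the highest value over 80 pairs of different number was 0.11, a hint of pairing from the data and not from the design. With the replicate block, 89 of 92 member calls held and 3 were lost, Atp6v0d1 (0.52) and Ctsc (0.41) in CpG-A vs medium and Atp6v1e1 (0.41) in CpG-B vs medium. Genes called rose to 12 for LIF added to CpG-A, 19 for LIF added to CpG-B, and 30 and 53 for the interactions with CpG-A and CpG-B.

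Leaving out each array in turn, the members called ranged from 13 to 18 in CpG-A vs medium, 10 to 14 in CpG-B vs medium, 0 to 2 in LIF vs medium, 6 to 13 in CpG-A vs CpG-B and 8 to 15 in CpG-A + LIF vs CpG-B + LIF. The genes called ranged from 2128 to 3415 in CpG-A vs medium, 2451 to 3927 in CpG-B vs medium, 16 to 168 in LIF vs medium, 0 to 4 and 1 to 17 for LIF added to CpG-A and CpG-B, 1 to 31 and 5 to 37 for the interactions, and 0 to 2 for the difference of LIF effects. The reading of Gla in CpG-B vs medium ranged from -1.63 to 1.65, on both sides of the fold. Without the decimal mark, neither signal over background nor changes beyond 3.16-fold can be measured, and 2 medium arrays limit every comparison with medium.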
